A study of Mus musculus with 13 samples.

Results

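The transcripts of 10 genes of the circadian clock and its output (Per1, Per2, Per3, Cry1, Cry2, Clock, Dbp, Tef, Nr1d1 and Nr1d2) were measured in left ventricular (LV) RNA of mice on 13 Illumina mouse BeadChip arrays, on which RNA labelled with biotin is read as 1 signal intensity per probe. The genes were taken by name, as every probe whose platform gene symbol was one of the 10. Such symbols were carried by 18 of the 25697 probes. A probe counted as detected on an array when its detection p-value against the negative controls of that array was under 0.01, and 12 of the 18 probes were detected on at least 3 arrays. These 12 probes left 8 of the 10 genes among the 7837 genes that were tested. The arrays comprised 3 of LXRα-Tg mice after TAC, 3 of LXRα-Tg mice after sham surgery, 4 of Wt mice after TAC and 3 of Wt mice after sham surgery, all labelled as male C57BL/6 mice aged 4 months. LXRα-Tg mice carried murine LXRα, the nuclear receptor encoded by Nr1h3, under the αMHC promoter, which is active in cardiomyocytes. Their founders were made in FVB oocytes and crossed into C57BL/6, and Wt mice were littermates without the transgene. TAC, a surgical narrowing of the aorta that puts the LV under pressure, or the sham operation lasted 5 weeks. The labels do not state whether each array is a separate mouse, so every p-value measures the spread between arrays. Although the series design states 3 per group, Wt TAC had 4 arrays and none was left out. The hour of tissue collection and the lighting of the animal rooms are not given in the sources used here.

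The transgene, the sex label and the tissue were checked first. Nr1h3 read at least 25186.7 (highest 31975.4) on 5 arrays and at most 396.7 (lowest 163.2) on 8, and its level went against the genotype label on 5 arrays (LXRα-Tg TAC 3, LXRα-Tg sham 1 and 2, Wt TAC 2 and Wt sham 3). The Y-linked transcript Eif2s3y was not detected on LXRα-Tg TAC 3 and Wt sham 1. Of 10 cardiomyocyte markers 9 were measured, and their mean level was 12.13 to 12.68 (normalized log2) on every array. Wt sham 3 also carried liver and kidney transcripts, with mean levels of 9.77 and 8.10 (normalized log2) that were the highest of the 13 arrays, and its Nr1h3 signal was high. LXRα-Tg TAC 1 came next, with means of 9.35 for liver and 6.63 for kidney. For each comparison of groups the direction of the values is therefore also given without the 5 arrays whose Nr1h3 went against the label, whereas correlations across arrays use no label. Without the 5 arrays LXRα-Tg sham 3 was the only array left in the LXRα-Tg sham group. In LV tissue, fewer cells of a type and less RNA per cell cannot be told apart.

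The clock is a loop of transcription factors that keeps daily time in nearly every cell. CLOCK pairs with BMAL1, the product of Arntl, and the pair binds E-boxes and switches on the Per and Cry genes, the nuclear receptor genes Nr1d1 and Nr1d2 and the output factor genes Dbp and Tef. PER and CRY proteins then hold the pair back, while the NR1D proteins repress Arntl and Nfil3. DBP and TEF activate genes that carry a D-box, the site at which NFIL3 represses. In the rodent heart the transcripts of Dbp, the Per genes and Nr1d1 are known to cycle over the day, with Arntl peaking at the opposite phase, and the cardiomyocyte clock is known for its daily control of metabolic and ion channel genes.

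The letters of these sites were searched on both strands in the 250 bases before each RefSeq gene start (GRCm38.p6). Windows were at hand for 9 of the 10 genes, 13 windows in all because some genes have several starts, and none was at hand for Per2. The E-box CACGTG was in 4 of the 13 windows (of Per1, Cry1 and Tef) and in 6.02% of the 32851 windows of all genes. Its variant CACGTT was in 3 windows (of Cry1, Cry2 and Nr1d1) and in 3.85% of all. The D-box TTATGTAA was in 1 window, that of Per3, which held it at 2 places, and in 0.819% of all. The nuclear receptor half-site AGGTCA was in 3 windows (of Per1, Clock and Nr1d2) and in 14.0% of all. A match of letters is a description of the window and not a measured site.

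Shown here are the windows of the genes on which the results below turn, with the matched letters in capitals: Dbp, whose level ordered the arrays, Per1 and Nr1d1 as genes of the feedback arms, both starts of Tef, whose probes behaved differently, and Ciart, a repressor of the CLOCK and BMAL1 pair that moved with Dbp. The Dbp window (chr7:45704997-45705246, plus strand) held none of the 4 motifs. The upstream of 2 Per1 windows (chr11:69098699-69098948, plus strand) held CACGTG 166 bases and AGGTCA 137 bases before the start, and the downstream one, not shown, held none of the 4 motifs. The Nr1d1 window (chr11:98775378-98775627, minus strand) held CACGTT 28 bases before the start. The upstream Tef start (chr15:81802423-81802672, plus strand) had CACGTG at 127 bases and the downstream start (chr15:81811164-81811413, plus strand) at 138 bases. The Ciart window (chr3:95882229-95882478, minus strand) held CACGTG at 116, 58 and 44 bases before the start.
Dbp: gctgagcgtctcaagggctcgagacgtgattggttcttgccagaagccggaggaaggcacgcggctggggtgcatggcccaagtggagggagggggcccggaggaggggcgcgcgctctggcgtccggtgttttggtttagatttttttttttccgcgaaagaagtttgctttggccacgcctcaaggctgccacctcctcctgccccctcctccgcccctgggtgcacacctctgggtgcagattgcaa
Per1, upstream start: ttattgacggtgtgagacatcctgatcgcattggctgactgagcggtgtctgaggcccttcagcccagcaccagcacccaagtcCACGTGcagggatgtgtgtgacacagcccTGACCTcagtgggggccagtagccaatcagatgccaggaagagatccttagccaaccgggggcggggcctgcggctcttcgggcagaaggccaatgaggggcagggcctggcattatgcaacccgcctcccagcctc
Nr1d1: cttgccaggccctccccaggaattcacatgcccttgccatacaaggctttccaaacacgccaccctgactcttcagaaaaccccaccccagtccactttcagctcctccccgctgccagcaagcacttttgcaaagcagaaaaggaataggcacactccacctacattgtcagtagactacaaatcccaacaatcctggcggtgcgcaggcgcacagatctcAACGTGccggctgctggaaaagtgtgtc
Tef, upstream start: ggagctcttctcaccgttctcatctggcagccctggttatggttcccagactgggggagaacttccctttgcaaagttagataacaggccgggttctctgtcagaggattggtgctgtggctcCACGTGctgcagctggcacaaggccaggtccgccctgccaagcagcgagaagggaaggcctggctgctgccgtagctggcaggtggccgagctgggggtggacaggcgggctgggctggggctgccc
Tef, downstream start: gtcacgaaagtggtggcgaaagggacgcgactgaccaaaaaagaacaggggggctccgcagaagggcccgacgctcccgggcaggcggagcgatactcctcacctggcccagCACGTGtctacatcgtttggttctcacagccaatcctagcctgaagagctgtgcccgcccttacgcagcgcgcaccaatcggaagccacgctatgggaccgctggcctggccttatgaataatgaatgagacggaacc
Ciart: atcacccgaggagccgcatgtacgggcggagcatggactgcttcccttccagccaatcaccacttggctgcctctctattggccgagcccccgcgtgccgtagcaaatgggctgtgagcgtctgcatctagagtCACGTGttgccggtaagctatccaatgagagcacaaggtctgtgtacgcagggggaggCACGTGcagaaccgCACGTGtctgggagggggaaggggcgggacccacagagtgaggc

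Of the feedback repressors, Per1, Per2 and Cry2 were measured and Per3 and Cry1 were not. Per1 (deposited signal of its brighter probe) was at 91.8, 48.2 and 95.5 on LXRα-Tg TAC arrays and at 43.9, 244.1 and 76.9 on LXRα-Tg sham arrays. It was at 192, 195.9, 237.8 and 66.8 on Wt TAC arrays and at 145.1, 72.5 and 187.5 on Wt sham arrays. The LXRα-Tg TAC arrays were all at 95.5 or lower, whereas each other group also held arrays at 145.1 or higher, and no pair of groups was separate for Per1. Per2 read 92, 14.8 and 49.3 on LXRα-Tg TAC arrays and 16.6, 152.9 and 29.5 on LXRα-Tg sham arrays. On Wt TAC arrays it read 137.7, 230.5, 174.4 and 64.1, and on Wt sham arrays 23, 28.1 and 216.2. Per2 was thus high on 1 LXRα-Tg sham array, on 1 Wt sham array and on most Wt TAC arrays, and all groups overlapped. It was detected on 12 of 13 arrays, the exception being LXRα-Tg sham 1. Cry2 varied far less, at 78.1, 36.7 and 38.2 on LXRα-Tg TAC arrays, 49.4, 50.5 and 34.1 on LXRα-Tg sham arrays, 69.6, 58.6, 72.2 and 44.1 on Wt TAC arrays and 43.8, 40.3 and 65.9 on Wt sham arrays. Its lowest normalized value on LXRα-Tg TAC arrays lay above its highest on LXRα-Tg sham arrays, and all other groups overlapped. The single Per3 probe was detected on 2 of 13 arrays, Wt TAC 1 and 3 (signals 18.6 and 39.5), and the single Cry1 probe on 0, with signals between -11.1 and 3.3. No group level can be given for Per3 or Cry1.

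Clock, the activator that lacked such swings, read 470.4, 344 and 344.3 on LXRα-Tg TAC arrays and 434.1, 507.7 and 459.3 on LXRα-Tg sham arrays. On Wt TAC arrays it read 648.1, 404.9, 445.1 and 591.3, and on Wt sham arrays 342.4, 475.5 and 297.9. Its highest and lowest arrays differed 1.54-fold after normalization, the narrowest range of the 8 genes. All groups overlapped for Clock. Its other 2 probes, and 1 further probe each of Per2 and Nr1d2, were detected on 0 of 13 arrays.

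The output factor genes gave the widest and an intermediate range. Dbp, an activator of D-box genes in metabolism, read 2849.5, 287.1 and 663.3 on LXRα-Tg TAC arrays and 286.9, 3798.2 and 1008.1 on LXRα-Tg sham arrays. It read 3768.1, 4985, 4734.4 and 633.9 on Wt TAC arrays and 582.1, 463.9 and 4950.4 on Wt sham arrays. Its levels spanned 19.7-fold after normalization, and each group held at least 1 array on either side of the widest gap between neighbouring arrays. That gap (1.29 on the log2 scale) left 6 arrays at 2849.5 to 4985.0 and 7 at 286.9 to 1008.1. The 6 were LXRα-Tg TAC 1, LXRα-Tg sham 2, Wt TAC 1, 2 and 3 and Wt sham 3, with 3 on each slide. High Nr1h3 was found on 3 of the 6 and on 2 of the 7, and both arrays without Eif2s3y were among the 7. Tef, which encodes the related thyrotroph embryonic factor, read 210.1, 109.6 and 138.4 on LXRα-Tg TAC arrays and 127, 354.1 and 145.7 on LXRα-Tg sham arrays (brighter probe). It read 349.1, 315.8, 457.6 and 222 on Wt TAC arrays and 161.2, 206.5 and 268.8 on Wt sham arrays. All LXRα-Tg TAC arrays lay below all Wt TAC arrays for Tef, and on the normalized scale they also lay below all Wt sham arrays, whereas the other groups overlapped.

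The repressors of the second loop were measured by 2 probes of Nr1d1 and 1 of Nr1d2. Nr1d1 (REV-ERBα) read 598.2, 208 and 333.7 on LXRα-Tg TAC arrays, 318.3, 727.5 and 422.3 on LXRα-Tg sham arrays, 520.4, 615.2, 676.4 and 269.9 on Wt TAC arrays and 201.7, 311.5 and 551.7 on Wt sham arrays. The arrays that were high for Dbp were also the 6 highest for Nr1d1 on the normalized scale, and all groups overlapped. Nr1d2 (REV-ERBβ) read 110.3, 10.9 and 33.3 on LXRα-Tg TAC arrays and 47.8, 69.8 and 44 on LXRα-Tg sham arrays. On Wt TAC arrays it read 161.8, 117.5, 86.4 and 55.9, and on Wt sham arrays 85.1, 72.7 and 77.7. All LXRα-Tg sham arrays lay below all Wt sham arrays for Nr1d2, and it was not detected on LXRα-Tg TAC 2.

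**Figure D1:**
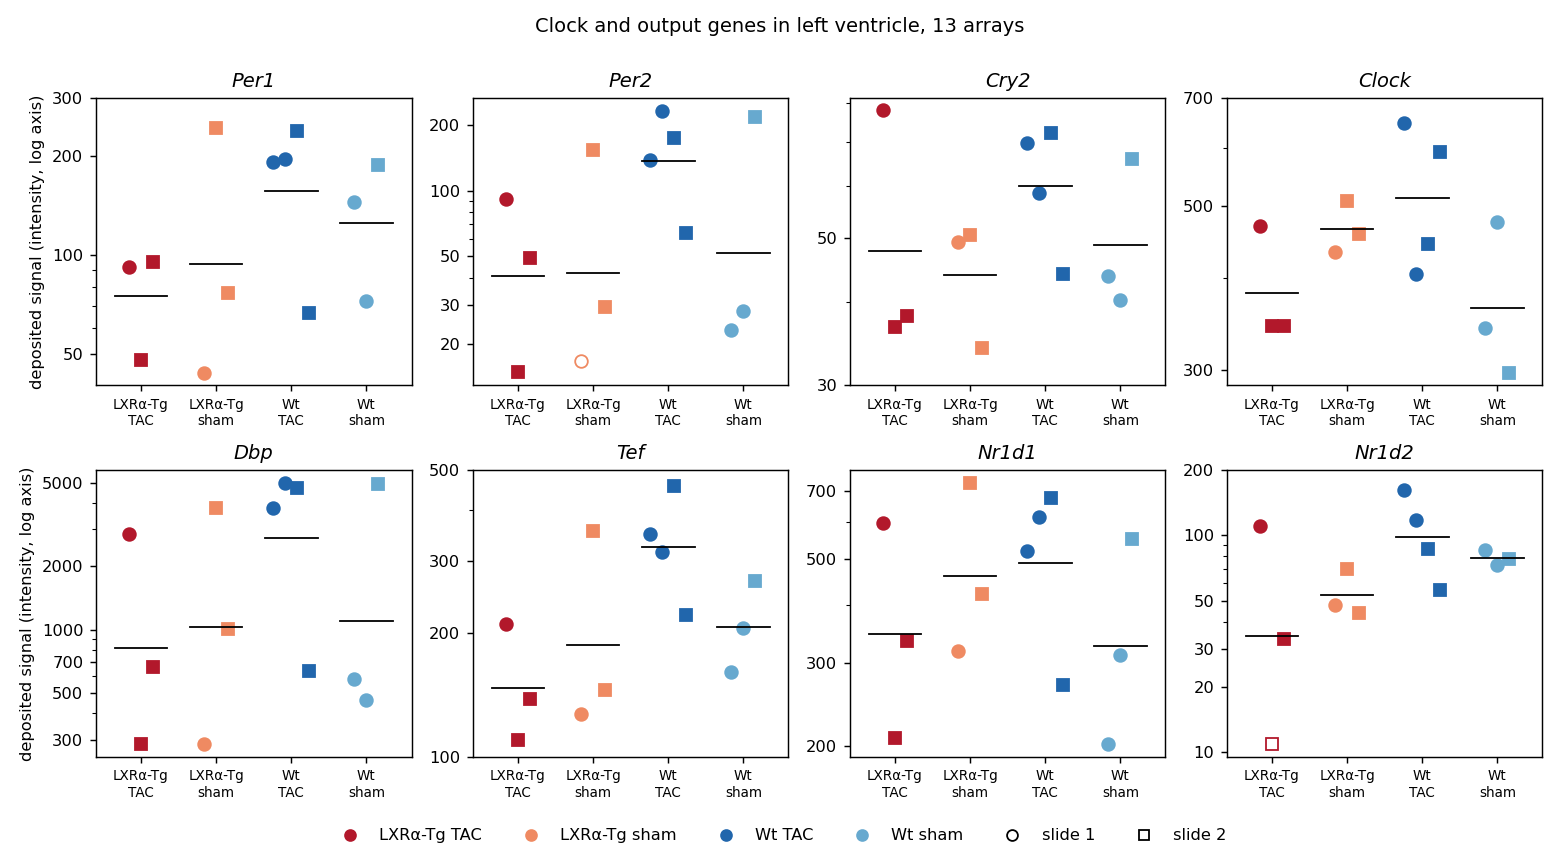
Deposited signal (intensity, log axis) of the 8 measured clock and output genes on each of 13 arrays, by group, with circles for slide 1, squares for slide 2, open symbols where the probe was not detected and a line at the geometric mean of each group. Every group holds both high and low arrays for Dbp, from 286.9 to 4985.0, whereas Clock stays between 297.9 and 648.1.

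Arrays of 1 group differed more in these genes than in most others. The SD within groups, pooled over the 4 groups, was 1.62 on the log2 scale for Dbp, which ranked 8 among the 7837 tested genes. It was 1.04 for Per2 and 0.76 for Per1, higher than in 99.1% and 97.7% of the genes. Nr1d1 and Nr1d2 had SDs of 0.57 and 0.56, Tef 0.43 and Cry2 0.27. Clock was the one gene below the median of all genes, at 0.17 against 0.23.

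The comparisons of genotype and of surgery ask whether the transgene or pressure overload altered these transcripts. With limma, 0 of the 8 genes passed an adjusted p of 0.05 in any of the 5 comparisons. In LXRα-Tg sham against Wt sham, 1.58% of all genes passed, and in TAC against sham in either genotype, in LXRα-Tg TAC against Wt TAC and in the difference of the TAC effects 0.0% passed. At an unadjusted p under 0.05, 2 of the 8 passed in LXRα-Tg TAC against Wt TAC, where 4.72% of all genes did, and 0 in each other comparison, where 16.1%, 6.88%, 7.04% and 10.2% did.

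In LXRα-Tg TAC against Wt TAC, the fitted values of all 8 genes were below 0, with a median of -0.72 against -0.01 for all genes. Most of the 8 genes moved together from array to array, so here and in the other comparisons the counts of signs do not stand on 8 separate observations. Of the arrays with high Dbp 3 were Wt TAC arrays, and each other group held 1. Dbp averaged 9.92 ± 1.35 (normalized log2, SD, 3 arrays) on LXRα-Tg TAC arrays and 11.29 ± 1.47 (4 arrays) on Wt TAC arrays, a log2 fold change of -1.37 (95% interval -3.62 to 0.88, limma adjusted p = 0.988). Per2 averaged 6.02 ± 0.72 on LXRα-Tg TAC arrays and 7.19 ± 0.75 on Wt TAC arrays, a log2 fold change of -1.17 (-2.63 to 0.29). The genes past the unadjusted threshold were Nr1d2 and Tef, both with a limma adjusted p of 0.988. Nr1d2 averaged 5.88 ± 0.93 on LXRα-Tg TAC arrays and 6.76 ± 0.55 on Wt TAC arrays, a log2 fold change of -0.88 (-1.69 to -0.08). Tef averaged 7.54 ± 0.13 on LXRα-Tg TAC arrays and 8.30 ± 0.45 on Wt TAC arrays, a log2 fold change of -0.76 (-1.39 to -0.13), but its dimmer probe differed by 0.08 (limma adjusted p = 0.990). Groups did not overlap for 1 of the 8 genes, Tef, and for 5.16% of all genes. The intervals of Per1 (-1.75 to 0.39), Nr1d1 (-0.98 to 0.66), Clock (-0.41 to 0.20) and Cry2 (-0.44 to 0.41) also held 0. Between 6 and 8 of the fitted values were below 0 under each of 28 alternatives, with medians of -0.42 or lower, and without the 5 arrays whose Nr1h3 went against the label 6 of 8 were below 0. Some of the 28, such as leaving out a sham array or changing the test, cannot move these fitted values and so do not bear on their direction.

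In LXRα-Tg sham against Wt sham, 6 of the 8 values were below 0, with a median of -0.42 against -0.01 for all genes. The difference was -0.75 for Nr1d2 (95% interval -1.62 to 0.11), -0.66 for Per1 (-1.81 to 0.48), -0.40 for Cry2 (-0.86 to 0.06) and -0.31 for Dbp (-2.72 to 2.09) on the log2 scale, with limma adjusted p-values of 0.386 to 0.923 over the 8 genes. Groups did not overlap for 1 of 8 genes, Nr1d2, and for 20.4% of all genes. Without the 5 arrays in doubt 4 of 8 values were below 0 (median -0.07), with LXRα-Tg sham 3 alone in its group. Without Wt sham 3 the median was -0.11.

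TAC against sham in Wt mice gave 8 of 8 values above 0, with a median of 0.25 against 0.02 for all genes. Dbp averaged 11.29 ± 1.47 on Wt TAC arrays and 10.26 ± 1.93 (SD, 3 arrays) on Wt sham arrays, a log2 fold change of 1.03 (95% interval -1.22 to 3.28), and Per2 differed by 0.85 (-0.61 to 2.31). On slide 1 alone 8 of 8 values were above 0 (median 0.61) and on slide 2 alone 1 of 8 (median -0.61), but on slide 2 the Wt sham side was the single array Wt sham 3. Without the 5 arrays in doubt 7 of 8 values were above 0 (median 0.37). In LXRα-Tg mice 5 of 8 values were above 0, with a median of 0.02 against 0.01 for all genes. On slide 1 alone, which held the single arrays LXRα-Tg TAC 1 and LXRα-Tg sham 1, 8 of 8 were above 0 (median 0.85). On slide 2 alone 2 of 8 were (median -0.46). Without the 5 arrays in doubt, with LXRα-Tg sham 3 alone on the sham side, 3 of 8 were above 0 (median -0.05). Over all arrays the 2 largest values were Cry2, at 0.39 (-0.07 to 0.85), and Per2, at 0.18 (-1.38 to 1.74). These values are of the brightest probes, and the dimmer kept probe of Per2 had the other sign (-0.20). The dimmer probes of Per1 and Tef were at -0.51 and 0.59, against 0.02 for the brighter probe of each. Groups did not overlap for Cry2 alone of the 8 genes, and for 12.1% of all genes. Between Wt TAC and Wt sham the groups of all 8 genes overlapped, and 7.29% of all genes did not. For the difference of the TAC effects between genotypes 7 of 8 values were below 0 (median -0.24), with adjusted p-values of 0.702 to 0.996 (limma). The direction did not hold within slides, each of which had groups of a single array. On slide 1 alone 3 of 8 were below 0 (median 0.16), and on slide 2 alone 3 of 8 (median 0.20). Without the 5 arrays, again with LXRα-Tg sham 3 alone in its group, 7 of 8 were below 0 (median -0.36).

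**Figure D2:**
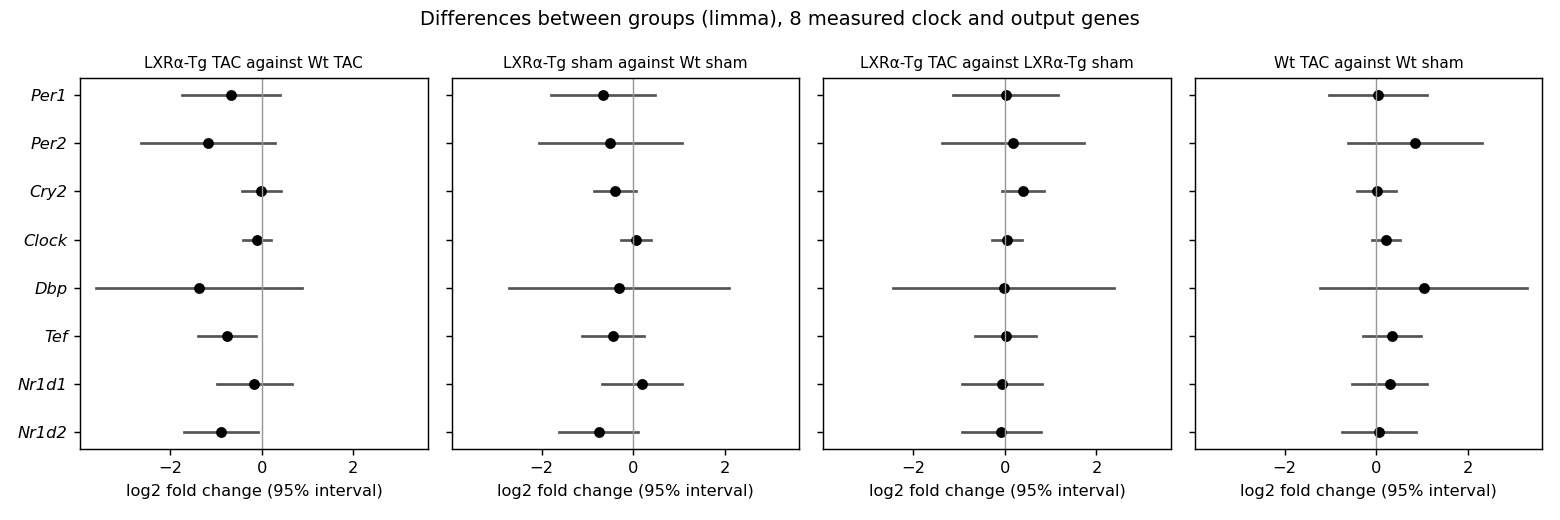
Log2 fold change (points) and 95% interval (lines, limma) of the 8 measured genes in 4 comparisons, each panel showing the first-named group over the second. The Dbp intervals are the widest, from -3.62 to 0.88 in LXRα-Tg TAC against Wt TAC, and those of Clock and Cry2 the narrowest.

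For Tef the result depended on the probe. The 2 kept probes of Per1, of Per2 and of Nr1d1 followed each other closely over the 13 arrays (r = 0.911, 0.911 and 0.953). The 2 Tef probes, annotated to different RefSeq transcripts, did not (r = 0.256, rho = 0.467, permutation p = 0.403 and 0.112). The dimmer Tef probe read 104.6, 70.8 and 102.7 on LXRα-Tg TAC arrays and 83.1, 70.1 and 66.1 on LXRα-Tg sham arrays. It read 119.3, 97.8, 102.1 and 105.7 on Wt TAC arrays and 123.3, 97.5 and 145.4 on Wt sham arrays, and its LXRα-Tg sham and Wt sham groups did not overlap. When each of 10422 probes was tested on its own, this probe fell by 0.93 ± 0.20 (log2, SE) in LXRα-Tg sham against Wt sham, with a limma adjusted p of 0.0431, in a comparison that called 1.22% of the probes. The brighter probe differed by -0.44 there, with an adjusted p of 0.561. In Wt TAC against Wt sham the dimmer and brighter probes differed in sign (-0.42 and 0.34, limma adjusted p = 0.719 and 0.851), as they did in the difference of the TAC effects (1.01 and -0.32, adjusted p = 0.252 and 0.864). The call for the dimmer probe was lost without the 2 arrays lacking Eif2s3y (-0.84, limma adjusted p = 0.183) and on leaving out any of 11 of the 13 arrays, where adjusted p-values reached 0.194. Without the 5 arrays in doubt, which left LXRα-Tg sham 3 alone in its group, the dimmer probe differed by -0.65.

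The genes moved together from array to array, whatever the group. Over the 13 arrays 21 of the 28 pairs of the 8 genes had a Pearson r above 0, namely all 21 pairs without Clock, with a median of 0.65 and a range of 0.43 to 0.943. By permutation test with Benjamini-Hochberg adjustment over the 28 pairs, 18 pairs were correlated, all positively, and by Spearman's rho 11 were. Dbp and Per2 were the closest pair (r = 0.943, rho = 0.973, permutation p = 1e-05 for each, the smallest that 100000 resamples can give, adjusted p = 0.00028). Dbp and Nr1d1 followed (r = 0.914, rho = 0.879, permutation p = 0.00011 and 0.00016, adjusted p = 0.00103), then Per2 and Tef (r = 0.886, rho = 0.819, permutation p = 6e-05 and 0.00114, adjusted p = 0.00084). The lowest pair without Clock was Nr1d1 and Nr1d2 (r = 0.43, rho = 0.407, permutation p = 0.142 and 0.169, adjusted p = 0.18). Leaving out the 2 arrays farthest from the median of the first gene of a pair left r between 0.507 and 0.921 in these 21 pairs, of which 5 then stayed correlated by the adjusted test. These 5 were Dbp with Per2, Nr1d1 and Tef, Per2 with Tef and Per1 with Tef.

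The same pairs were positive within batches and groups. Of the 21 pairs without Clock, 21 had r above 0 on slide 1 (6 arrays, median 0.797) and 21 on slide 2 (7 arrays, median 0.792). With values centred on their group means the median was 0.737 (lowest 0.404). Without Wt sham 3 the median was 0.629, and without the 5 arrays whose Nr1h3 went against the label it was 0.639, each time with 21 of 21 above 0, although 0 of the 28 pairs passed the adjusted test over those 8 arrays. Within the 6 arrays above the gap in Dbp 18 of the 21 were above 0 (median 0.389), and within the 7 below it 17 (median 0.329). Dbp and Per2 kept r = 0.987 in the upper 6 arrays and 0.612 in the lower 7.

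Clock stood apart. Its r with the other 7 genes was -0.46 to -0.04 over 13 arrays, and 0 of these pairs passed the adjusted test. On slide 1 all 7 were above 0 (0.101 to 0.553) and on slide 2 all 7 below 0 (-0.90 to -0.58), so no direction was common to both slides.

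**Figure D3:**
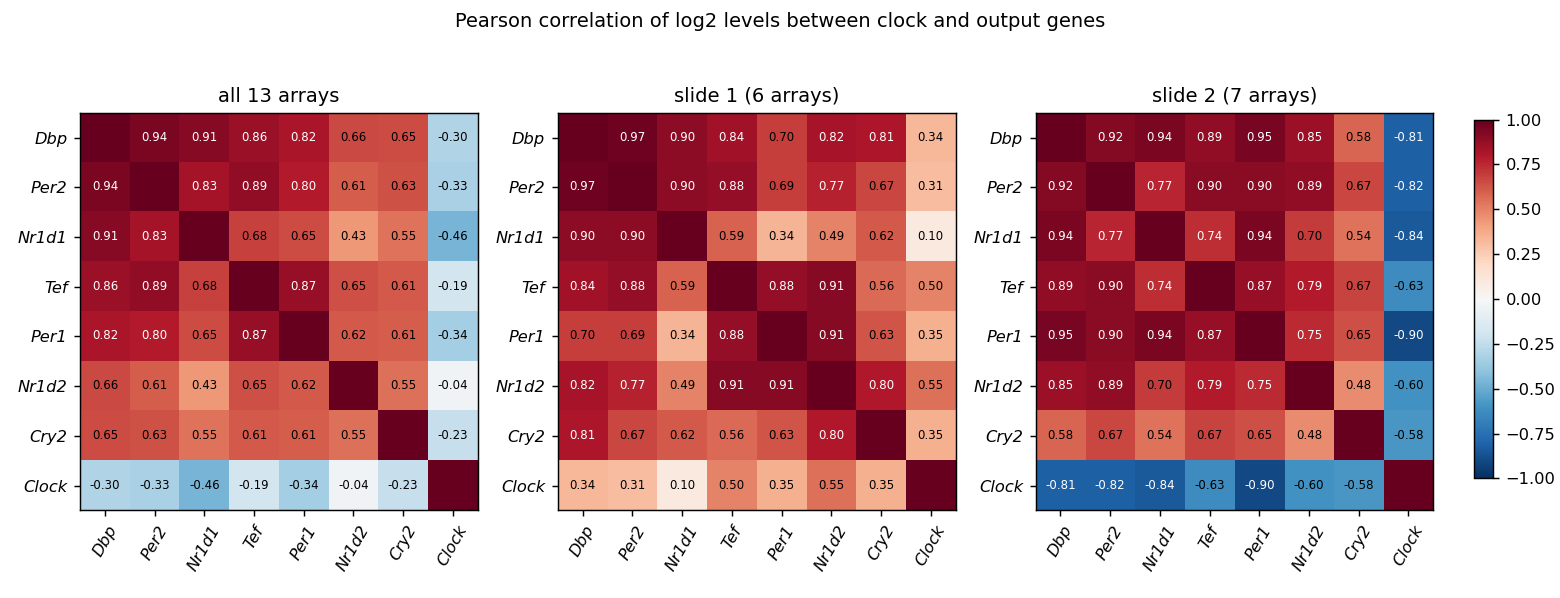
Pearson r between the normalized log2 levels of each pair of the 8 measured genes over all 13 arrays, over the 6 arrays of slide 1 and over the 7 arrays of slide 2. All pairs without Clock are positive in each panel, whereas the Clock row is above 0 on slide 1 and below 0 on slide 2.

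Because Dbp had the widest range, every other gene was regressed on its log2 level over the 13 arrays with limma, a test chosen after the values were seen. At an adjusted p under 0.05, 14 of 7836 genes (0.179%) followed Dbp, 7 positively (0.0893%) and 7 negatively (0.0893%), and 524 passed an unadjusted p of 0.05. The permutation test of Pearson r with Dbp was stricter, with 2 of the 7836 genes (0.0255%) past the adjusted threshold, Per2 and Nfil3. By Spearman's rho 2 passed, Per2 and Dusp8. Without the 2 arrays farthest from the median of Dbp 0 passed by r. The 6 genes with the smallest limma p were all in the clock lists, but these lists were chosen with earlier results of these data known. Of the 7 other measured members, 3 passed in the regression. Per2 rose by 0.66 (95% interval 0.52 to 0.80, limma adjusted p = 0.000148), Nr1d1 by 0.30 (0.22 to 0.39, adjusted p = 0.00324) and Tef by 0.29 (0.18 to 0.39, adjusted p = 0.026) for each unit of Dbp on the log2 scale. Per1, at 0.40 (0.24 to 0.56), had an adjusted p of 0.0522. The slopes of Nr1d2 (0.28, 0.10 to 0.46), Cry2 (0.13, 0.03 to 0.22) and Clock (-0.03, -0.11 to 0.04) had adjusted p-values of 0.482, 0.588 and 0.884. With slide as a term all 14 genes were called again, among 21 in all, and with group as a term 7 of the 14 were, Tef not among them (adjusted p = 0.0796). Tef was also not called without Wt sham 3 (adjusted p = 0.0765), and its dimmer probe had r = 0.148 with Dbp, against 0.862 for the brighter. Over the 8 arrays without those whose Nr1h3 went against the label, 0 genes were called.

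Of 27 further clock genes 15 were measured, and 3 of the 15 passed. Nfil3, the D-box repressor, fell by 0.55 per unit of Dbp (95% interval of the slope -0.65 to -0.45, limma adjusted p = 5.59e-05). Its signal was 254.6, 359.5 and 360.5 on LXRα-Tg TAC arrays, 561, 214.1 and 308.6 on LXRα-Tg sham arrays, 242.4, 101.5, 149.2 and 676.9 on Wt TAC arrays and 468.3, 571.9 and 110 on Wt sham arrays. The 6 arrays with high Dbp held the 6 lowest Nfil3 signals. Arntl, the partner of Clock, fell by 0.46 per unit of Dbp (adjusted p = 0.00131). It read 41.4, 45.5 and 36.7 on LXRα-Tg TAC arrays, 108.1, 21.7 and 42.7 on LXRα-Tg sham arrays, 26.5, 9.8, 7.2 and 41.6 on Wt TAC arrays and 71, 76.7 and 8.1 on Wt sham arrays, and it was detected on 9 of the 13. Ciart rose by 0.72 per unit of Dbp (limma adjusted p = 0.00131), whereas the permutation tests of its r and rho gave adjusted p = 0.0784 and 0.323. It read 55.8, 17.5 and 11.8 on LXRα-Tg TAC arrays, 19.3, 125.6 and 12.5 on LXRα-Tg sham arrays, 97.6, 272.1, 158.5 and 14.4 on Wt TAC arrays and 11.4, 8.3 and 129.8 on Wt sham arrays. Ciart was thus at least 55.8 on each of the 6 arrays with high Dbp and at most 19.3 on the 7 others. It was detected on 7 arrays in all, so it passed the detection filter largely through the arrays where it was high. Its slope therefore mostly sets signal against background, and within the 7 arrays with low Dbp its r with Dbp was -0.22.

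The opposition of Nfil3 and Arntl to Dbp held on each slide. For Nfil3 r was -0.96 over 13 arrays (rho = -0.90, permutation p = 1e-05 and 0.00013, adjusted over 7836 genes p = 0.0392 and 0.112), -0.94 on slide 1 and -0.99 on slide 2. For Arntl it was -0.92 (rho = -0.91, permutation p = 3e-05 and 8e-05, adjusted p = 0.0588 and 0.112), -0.94 and -0.95 on the slides. Without the 2 arrays farthest from the median of Dbp, r was -0.95 for Nfil3 and -0.88 for Arntl, and without Wt sham 3 it was -0.95 and -0.90. Within the 7 arrays with low Dbp, r was -0.64 and -0.53. The other 12 measured genes of the list did not pass, the nearest being the deubiquitinase gene Usp2 (slope 0.28, adjusted p = 0.109) and the nuclear receptor gene Rora, an activator of Arntl (0.11, adjusted p = 0.547).

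**Figure D4:**
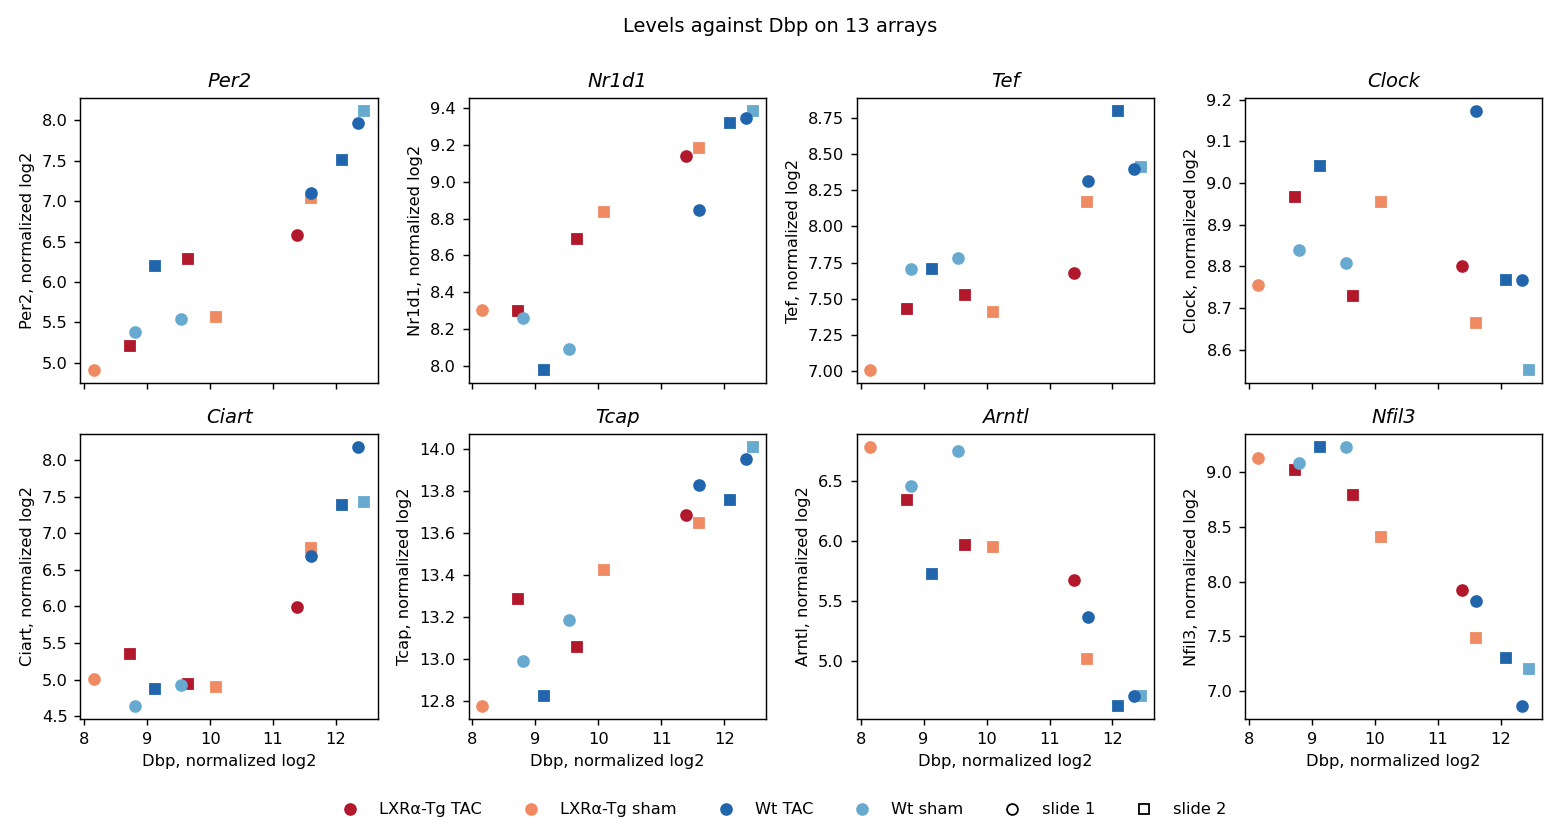
Normalized log2 level of 8 genes against that of Dbp, 1 point per array, coloured by group, with circles for slide 1 and squares for slide 2. Per2, Nr1d1, Ciart and Tcap are higher and Arntl and Nfil3 lower on the arrays with high Dbp, whereas Clock has no common direction. Tef is higher on most arrays with high Dbp, but on LXRα-Tg TAC 1 (7.68) it is below some arrays with low Dbp, such as Wt sham 1 (7.78).

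Of 9 genes known as outputs of the cardiac clock 8 were measured, and Tcap passed. Tcap encodes telethonin, a protein of the sarcomere, and was the gene with the highest r with Dbp (0.946, rho = 0.923). The permutation tests of its r and rho gave adjusted p = 0.0522 and 0.104. Its signal was 14293.3, 7774.7 and 7410.5 on LXRα-Tg TAC arrays, 6659.2, 15244.6 and 10024.9 on LXRα-Tg sham arrays, 17103.4, 15721.8, 14988.4 and 8076.6 on Wt TAC arrays and 8163.9, 8395.7 and 14312.8 on Wt sham arrays. It rose by 0.27 per unit of Dbp (95% interval 0.20 to 0.33, limma adjusted p = 0.00131), and its 6 highest arrays were those with high Dbp. The metabolic and channel genes of the list had smaller r, from 0.0093 for Kcnip2 to 0.496 for Ucp3.

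The other 7 genes that passed were on none of these lists. Coq10b, for a coenzyme Q binding protein, and Slc10a6, for a transporter of sulfated steroids, rose by 0.23 and 0.27 per unit of Dbp (limma adjusted p = 0.0354 and 0.026). The phosphatase gene Dusp8 fell by 0.29 (adjusted p = 0.0112), the matrix protein gene Spon2 by 0.46 (0.019), the forkhead factor gene Foxs1 by 0.26 (0.0375), Rasl11a by 0.22 (0.0428) and Bcl3, a cofactor of NF-κB, by 0.21 (0.048). Bcl3 was detected on only 6 of the 13 arrays, Rasl11a on 9 and Slc10a6 on 11. These 7 genes were named because they passed the test. With group as a term 6 of the 7 were no longer called (Dusp8 was, adjusted p = 0.0334, and the others had 0.0796 to 0.211), and without Wt sham 3 the calls of Coq10b, Slc10a6, Spon2, Foxs1 and Bcl3 were lost (0.0631 to 0.182).

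**Figure D5:**
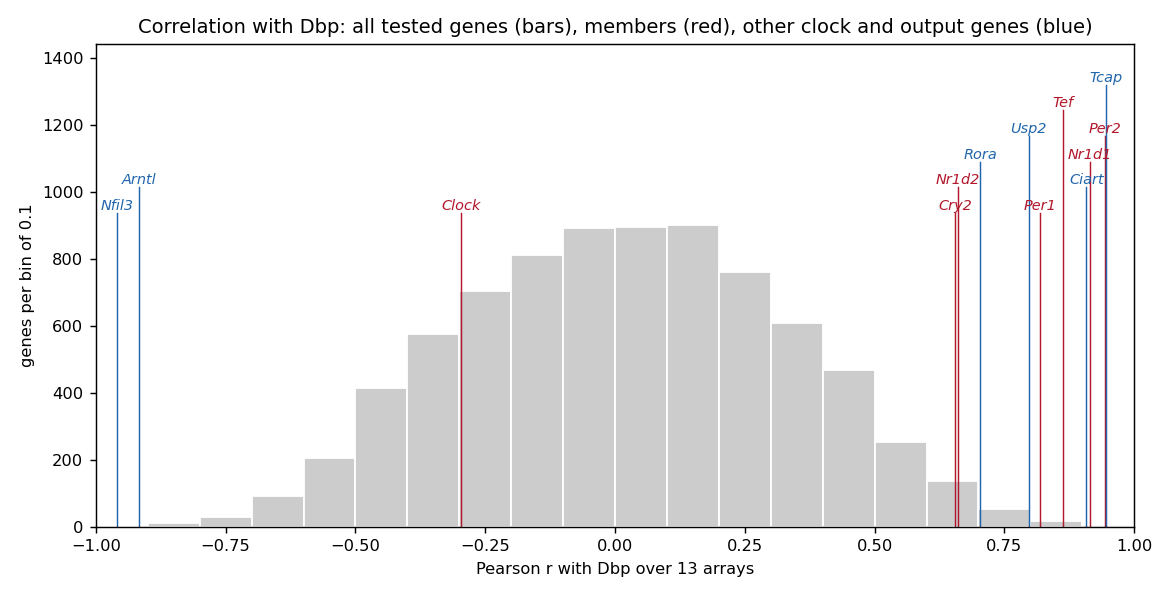
Number of genes per bin of 0.1 in Pearson r with Dbp over 13 arrays (bars, 7836 genes), with the measured members in red and those further clock and output genes with the largest absolute r in blue. Nfil3 and Arntl lie at the lower end and Tcap and Per2 at the upper end, and the median of all genes is 0.02.

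Markers of other conditions and cell types were set beside Dbp. Of the 12 measured glucocorticoid response genes Per1, as a clock member, was left out of the mean. The mean level (normalized log2) of the others had r = 0.625 with Dbp (rho = 0.538, permutation p = 0.0128 and 0.0607, adjusted p = 0.18 over 14 measures, r = 0.601 without the 2 farthest arrays). This mean ranged from 9.10 to 9.26 on the 6 arrays with high Dbp and from 8.70 to 9.19 on the 7 others. Endothelial markers (8 of 10 measured) had r = -0.60 (rho = -0.62, permutation p = 0.033 and 0.028, adjusted p = 0.231), with mean levels of 9.36 to 9.63 on the 6 arrays and 9.44 to 9.76 on the 7. For the 9 cardiomyocyte markers r was -0.15 (adjusted p = 0.753), with 12.13 to 12.57 and 12.27 to 12.68. The 12 liver markers had r = 0.14 and the 8 kidney markers 0.431, with the highest means on Wt sham 3 and the next on LXRα-Tg TAC 1, both among the 6. The number of probes detected had r = 0.167 and the log2 Nr1h3 signal 0.359, and 0 of the 14 measures passed the adjusted test. The part of these measures in the common movement of the clock genes was not tested.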

How the data were processed

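LV RNA of LXRα-Tg and Wt mice was amplified, labelled with biotin and hybridised to 13 BeadChip arrays on 2 slides. The deposited non-normalized signal intensity of each probe, read with GenomeStudio 2011.1 per the submitters' processing notes, had the background of its array subtracted, so low values can be negative. The deposited detection p-value compares each probe with the negative controls of its array. The authors' table of processed intensity shared 1 distribution across arrays on a linear scale and served as an alternative. Gene names came from the platform annotation.

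Background correction by normexp (offset 16), quantile normalization and log2 were done by the neqc function (R 4.3.3, limma 3.58.1). Probes detected at p under 0.01 on at least 3 arrays were kept (11028 of 25697), and the brightest named probe stood for each of 7837 genes. A group-means model with 9 residual degrees of freedom was fitted with lmFit and eBayes to all genes, with Benjamini-Hochberg adjustment over all of them and a threshold of 0.05. Pairs of genes were correlated with two-sided permutation tests of 100000 resamples (scipy 1.17.1, Python 3.11.15). The regression on Dbp used the same limma steps. Each test was tested on simulated data. Promoter windows came from RefSeq (GRCm38.p6).

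Groups came from the array titles. The text names every listed gene by each of its probes, the genes of other lists that passed a test, and for each measured gene the 3 non-members with the highest r. Dbp as the regressor and the genes that passed with it were chosen after the values were seen, and the members and lists were chosen with earlier results of these data known. Alternatives covered background correction, scaling, the detection filter, slide, array weights, an unpaired t-test, the methods' ANOVA, the arrays in doubt and each array in turn. The number of arrays limits the precision.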

Additional observations from a re-analysis of the deposited data

Results flagged for a closer look

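Per3, the period gene whose only probe was left out of the comparisons because it was detected on 2 of 13 arrays, gave its highest signal, 39.5, on Wt TAC 3 and 18.6 on Wt TAC 1. Its signals on the other 11 arrays lay between -9.5 and 15.7 and were not detected, those of the 3 Wt sham arrays (-9.5, 0.7 and 7.4) included. Both arrays were among the 6 with high Dbp.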

How the results depend on the processing

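The count of measured clock genes called between groups stayed at 0 under all alternatives run but 1. These included the ANOVA that the paper's methods name and an unpaired t-test, run in place of the paired t-test named there. The exception was 1 call in LXRα-Tg sham against Wt sham when every kept probe was its own feature (the dimmer Tef probe). The count of correlated pairs, 18 of 28, was 5 without the 2 farthest arrays, 0 on slide 1, 11 on slide 2 and 0 without the 5 arrays whose Nr1h3 went against the label. On leaving out 1 array it was 8 to 19, with 8 each without LXRα-Tg sham 1, Wt TAC 2 and Wt sham 3. With no detection filter it was 9, out of more than 28 pairs, because Per3 and Cry1 entered. With probes detected on all 13 arrays it was 7, out of fewer than 28 pairs, because Per2 and Nr1d2 dropped out and 6 genes were left. The median r of the 28 pairs was 0.62. Over the pairs that each alternative held it was 0.52 to 0.72 under these and the other processing alternatives. Within the 6 arrays above the gap in Dbp it was 0.26, and within the 7 below it 0.17. Genes called with Dbp, 14 in number, were 8 with group as a term, 0 on slide 1, 1 on slide 2, 0 without the 5 arrays, and 7 to 14 on leaving out 1 array, lowest without Wt TAC 1. Of the clock genes, 3 of which were called with Dbp, 0 were on slide 1, 0 on slide 2 and 0 without the 5 arrays, and 2 to 4 on leaving out 1 array. The slide and 5-array alternatives have fewer arrays by construction. No result reversed its direction past the threshold. No paired analysis was possible because the labels carry no replicate numbers. Signal over background limits Per3 and Cry1, which gave no level.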

Other observations

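For each measured clock gene the non-member genes with the highest Pearson r over the 13 arrays were listed, as a description over arrays that share slides and groups. Slc25a33, for a mitochondrial pyrimidine nucleotide carrier, was nearest to Per1 (r = 0.908, rho = 0.907, r = 0.847 without the 2 farthest arrays), followed by Cd99l2 and Usp2. Coq10b was nearest to both Per2 (r = 0.913, rho = 0.819) and Tef (r = 0.923, rho = 0.896), with Gtdc1 also among the nearest of Per2, and Usp2 and Tmem256 next for Tef, Ciart was among the 3 nearest of Per2, Dbp and Nr1d1, and Tcap among those of Dbp and Nr1d1. Sfxn1, for a mitochondrial serine transporter, was nearest to Nr1d1 (r = 0.888, rho = 0.863), and Hif3a, for a hypoxia-inducible factor subunit, to Nr1d2 (r = 0.929, rho = 0.912), although Hif3a was detected on 4 arrays. Mtmr14 and Dclre1b came next for Nr1d2, and Dclre1b was detected on 6 arrays. Nop9 and Arap1 were nearest to Cry2 (r = 0.854 and 0.844), followed by Gstt1, although Arap1 too was detected on only 4 arrays. The 3 nearest to Clock, Dut, Rnf144a and Nck2 (r = 0.909, 0.862 and 0.844), were nearest to none of the other 7 genes.

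Genes that respond to body temperature were set beside Dbp as well. Of 12 listed 9 were measured, 2 had r above 0 and 7 below, with a median r of -0.30 against 0.02 for all genes, and 0 were called in the regression on Dbp, against 0.179% of all genes. Of 10 measured immediate early genes 6 had r above 0 (median 0.06), and 0 were called.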
